A study of Mus musculus with 22 samples.

Results

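The cells described here were mouse myeloid cells with transcripts of Gpnmb, the glycoprotein NMB that macrophages make when their lysosomes are loaded. They were chosen by their own counts in the single-cell libraries of pooled organs. A barcode (the tag of a droplet, standing for a cell) was taken when it held at least 200 genes and at most 25% mitochondrial counts, at least 2 unique molecular identifiers (UMIs, captured transcripts) of Gpnmb, at least 1 UMI in at least 2 of the 5 companion genes Fabp5, Spp1, Trem2, Lgals3 and Ctsk, at least 1 UMI of Ptprc or Lyz2, and 0 UMI of Epcam, Cd79a and Cd3e. The rule found 3893 cells among the 93055 passing barcodes of the 11 organ libraries (4.18%), out of 95843 passing barcodes in all 22 libraries. The levels of the genes in the rule are therefore given as descriptions, without a test.

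Macrophages that take up much lipid or cell debris are known to switch on a shared set of genes for lipid binding, lysosomal digestion and matrix turnover, and such cells, often called lipid-associated macrophages, have been described in fat, liver, arteries and tumours. Gpnmb is a membrane protein of lysosomes and the cell surface that is controlled by transcription factors of the MiT/TFE family, which also drive lysosome genes. Fabp5 carries fatty acids in the cytosol, Spp1 (osteopontin) is a secreted matrix and cytokine-like protein, Trem2 is a receptor for lipids that signals through Tyrobp, Lgals3 (galectin-3) binds sugars on damaged membranes, and Ctsk (cathepsin K) digests collagen. Alveolar macrophages, which clear surfactant in the lung, handle lipid throughout life.

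All mice carried Prom1-CreERT2;Rosa26ZSG, a Cre recombinase that the Prom1 promoter drives and tamoxifen activates, with a green fluorescent reporter, and the study's methods give tamoxifen to these mice. They were wild type (Nalcn-wt), heterozygous (Nalcn-het) or null (Nalcn-null) for a conditional allele of Nalcn, a sodium leak channel, and the study asked what its loss does to the spread of non-malignant cells. Kidney, liver, lung and stomach with epididymis (males) or uterus (females) were dissociated, tagged by organ and pooled, and the tag counts were not used here, so no cell has an organ of origin. The wt libraries were replicates 1 and 2 (male, 571 days), 3 (male, 608 days), 4 (female, 611 days) and 5 (female, 654 days), the het libraries replicates 1 and 2 (male, 551 days), and the null libraries replicates 2 (male, 552 days) and 3 (female, 611 days). Another 2 libraries (without a genotype 1, male, 610 days, and 2, female, 647 days) carried the genotype of one group in the title and the strain label of another group. They entered no comparison of genotypes, and tests between classes only in an alternative. The recombinase acts in Prom1-expressing cells and their progeny, so the macrophages need not have lost Nalcn. The Gpnmb-positive cells of all organ libraries together held 0 UMIs of Nalcn and 133 of Prom1, and loss of Nalcn in them was not tested.

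Several libraries differed from the rest in ways that touch the values. The library wt replicate 2 had the most passing barcodes and the most UMIs. It stood apart in the cells described here, so the comparisons between groups are given with and without it. The labels do not say whether wt replicates 1 and 2, or het replicates 1 and 2, came from different mice, and p-values then measure the spread between libraries, which may be technical. The null replicate 3 library, labelled female, held Y-linked transcripts at 31.2 CPM (UMIs of a gene per 1000000 UMIs of all genes) beside Xist at 1347 CPM, against 0.0567 to 0.117 CPM of Y-linked transcripts in the other female libraries and 106 to 192 in the male ones. Its Gpnmb-positive cells held 600 UMIs of Xist and 6 of Y-linked genes. Total UMIs per organ library ran from 8571019 to 139793927, and 161 of the Gpnmb-positive cells had a barcode that also occurred in another organ library, of which 1 barcode met the rule in both.

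The cells were spread very unevenly over the libraries. The library wt replicate 2 held 2595 of them, 66.7% of all and 14.2% of its passing barcodes (exact 95% interval 13.7 to 14.7), and the other 10 libraries together held 1298. Among the other wt libraries the share of passing barcodes was 3.8% in replicate 1 (226 cells), 2.27% in replicate 3 (127 cells), 0.842% in replicate 4 (110 cells) and 0.348% in replicate 5 (1 of 287 barcodes, exact 95% interval 0.00882 to 1.93). The het libraries held 2.15% (161 cells) and 1.66% (67 cells). The null libraries held 1.4% (122 cells) and 1.01% (95 cells), and the libraries without a genotype 1.09% (47 cells) and 2.14% (342 cells). Intervals and limits of this kind cover counting error only. Outside wt replicate 2, then, the share lay between 1.01% and 3.8% in all libraries but wt replicates 4 and 5, which lay lower. A rule that counts UMIs depends on depth. With each barcode thinned to 2000 UMIs and shallower ones left out, the share was 17.6% in wt replicate 2, 4.9% in null replicate 2, 3.2% in het replicate 2, 1.83%, 1.79%, 1.05% and 0.435% in wt replicates 1, 3, 4 and 5, 1.29% in het replicate 1 and 0.867% in null replicate 3. The order of the libraries below wt replicate 2 thus changed, null replicate 2 and het replicate 2 moving up and wt replicate 1 down. In null replicate 2, 79 of 1613 passing barcodes then met the rule, against 122 of 8710 before. Thinning and the loss of shallow barcodes were not told apart.

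The cells were not of a single kind. Alveolar macrophages were marked by 9 genes (Ear1, Ear2, Siglecf, Krt79, Marco, Chil3, Fabp1, Car4 and Plet1), of which Ear1 and Ear2 are near-identical copies, and 1288 of the Gpnmb-positive cells (33.1%) had at least 3 of these detected. Among the rest, 1364 cells (35.0%) had at least 2 of the 3 complement genes C1qa, C1qb and C1qc, which mark many resident tissue macrophages, and 1241 (31.9%) met neither. Outside wt replicate 2 the alveolar-marked cells made up 1056 of 1298 (81.4%), the C1q-marked cells 179 (13.8%) and the others 63 (4.85%). In wt replicate 2 the order was turned around, with 232 alveolar-marked cells, 1185 C1q-marked cells and 1178 with neither. Its C1q-marked cells had a median of 10531 UMIs and those with neither mark 6140. The part of depth in this split was not tested. Of all cells without the alveolar mark, 90.7% came from that library. A list of 19 other genes of lipid-associated macrophages summed to 17609 to 22524 CPM in alveolar-marked and 20987 to 24678 CPM in C1q-marked cells, against 9294 to 17955 CPM in alveolar and 4189 to 8685 CPM in C1q-positive macrophages without Gpnmb. As the rule took in both alveolar-marked and other cells, they are called Gpnmb-positive here.

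**Figure D1:**
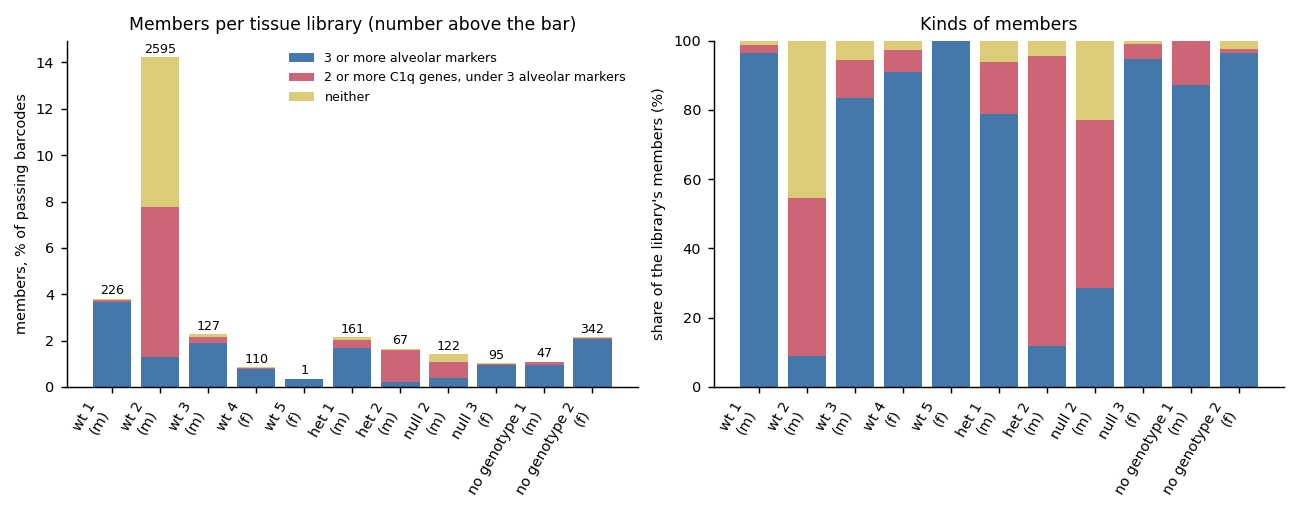
Gpnmb-positive cells by organ library. Left, their share of passing barcodes (percent), stacked by alveolar-marked, C1q-marked and neither, with the number of cells above each bar, where wt replicate 2 reaches 14.2% and the next library 3.8%. Right, the share of each class among the Gpnmb-positive cells of the library, where alveolar-marked cells are at least 78.9% in all libraries but wt replicate 2, het replicate 2 and null replicate 2.

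The alveolar-marked share of the Gpnmb-positive cells separated the libraries further. It was 96.5% in wt replicate 1, 83.5% in wt replicate 3, 90.9% in wt replicate 4, 78.9% in het replicate 1, 94.7% in null replicate 3, and 87.2% and 96.5% in the libraries without a genotype. It was 8.94% in wt replicate 2, 11.9% in het replicate 2 and 28.7% in null replicate 2. In those last libraries cells without the alveolar mark made up 13%, 1.46% and 0.999% of passing barcodes, against 0 to 0.453% elsewhere. Read the other way, between 3.84% (null replicate 2) and 44.0% (wt replicate 1) of all cells that passed the alveolar gate were Gpnmb-positive. Near the cut between the classes lay 82 cells with exactly 3 alveolar markers and 283 with 2, of which 29 and 26 came from libraries other than wt replicate 2, so more of the alveolar-marked cells of that library lay close to the cut.

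Gpnmb itself was read at very different levels in these classes. In wt replicate 2 the cells without the alveolar mark held a median of 26 Gpnmb UMIs (3518 CPM per cell) and up to 476, in het replicate 2 22 UMIs (2849 CPM) and in null replicate 2 7 UMIs (2547 CPM). Alveolar-marked cells held a median of 2 to 5 UMIs. Their median level per cell was 341 CPM in wt replicate 1, 574 in wt replicate 2, 586 in wt replicate 3, 635 in wt replicate 4, 397 in het replicate 1, 324 in het replicate 2 (8 cells), 941 in null replicate 2 and 634 in null replicate 3, with 537 and 766 in the libraries without a genotype. The middle ranges of alveolar-marked cells (25th to 75th percentile) ended at or under 1278 CPM in every library but wt replicate 2, where the 75th percentile was 2435 CPM. Of the 1969 cells with at least 10 Gpnmb UMIs, 1789 came from wt replicate 2, which also gave 91.3% of all Gpnmb UMIs in the Gpnmb-positive cells.

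**Figure D2:**
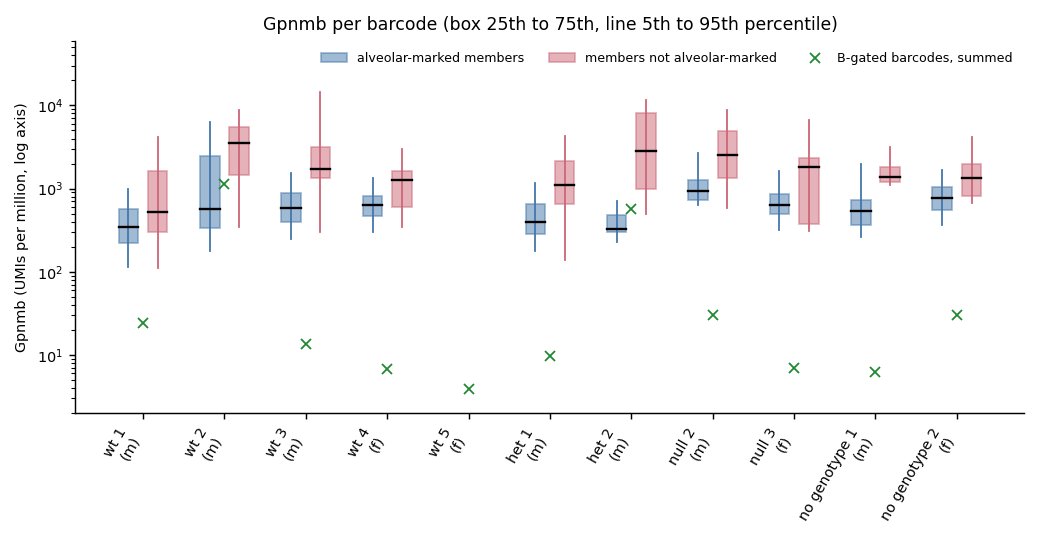
Gpnmb level per Gpnmb-positive cell (CPM, log axis) by organ library, alveolar-marked cells beside the others, with boxes from the 25th to the 75th percentile, whiskers from the 5th to the 95th and the summed level of B cell gated barcodes as a green cross. Cells without the alveolar mark have medians of 3518 CPM in wt replicate 2 and 2849 in het replicate 2, above the 324 to 941 CPM of alveolar-marked cells, and the B cell level in these libraries is 1147 and 572 CPM.

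Cells just inside and just outside the cut in Gpnmb were set side by side. There were 867 cells at exactly 2 Gpnmb UMIs, and another 2748 barcodes at 1 UMI met the rest of the rule. Just inside the cut, the summed levels were 927 CPM of Fabp5, 944 of Spp1, 148 of Trem2, 2573 of Lgals3 and 266 of Ctsk, and just outside it 570, 872, 104, 1945 and 179 CPM. The median depth was 4143 UMIs inside and 3341 outside, and 61.0% and 48.9% were alveolar-marked. The library wt replicate 2 gave 379 of the 867 cells inside and 1537 of the 2748 outside, so the mixture of libraries differed across the cut. All 5 companions were higher just inside it in these pooled sums.

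Reads of Gpnmb in cells that should lack it were low in most libraries and high in a few. Barcodes gated as B cells had a Gpnmb UMI in 0.556% to 3.69% of cells in all organ libraries but wt replicate 2, where the share was 36.4%, and their Gpnmb level was 3.83 to 29.8 CPM in all but het replicate 2 (572 CPM) and wt replicate 2 (1147 CPM). At least 2 Gpnmb UMIs, the cut of the rule, were held by 13.8% of these barcodes in wt replicate 2 and by 0 to 1.81% in the other libraries. Their median depth in wt replicate 2 was 2795 UMIs, against 8268 for the Gpnmb-positive cells. Cells were then thinned to 1000 UMIs, with shallower ones left out. A Gpnmb UMI was seen in 88.4% of C1q-marked and 84.0% of unmarked Gpnmb-positive cells of wt replicate 2, and in 18.8% of its B cell gated barcodes. Outside that library it was seen in 0.926% of B cell gated barcodes (1.94% before thinning), in 50.8% of alveolar-marked and in 76.5% of C1q-marked Gpnmb-positive cells. How far free RNA added to the cells of wt replicate 2 was not tested. Scrublet scores marked 16.2% of the Gpnmb-positive cells as doublets, against 9.07% of all passing barcodes. The share was higher in the Gpnmb-positive cells in 8 of the 10 libraries with more than 1 such cell, with 19.4% against 14.5% in wt replicate 2 and 10.6% against 4.48% in wt replicate 1, and lower in het replicate 2 (1.49% against 3.04%) and null replicate 2 (2.46% against 6.66%).

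Outside wt replicate 2, 4 of the companion genes differed in detection between the classes. All 5 were detected in 42.5% of the Gpnmb-positive cells, 4 in 33.8%, 3 in 15.6% and 2 in 8.14%. Trem2 was detected in 42.2% of alveolar-marked cells outside wt replicate 2 and in 95% of C1q-marked ones, and after thinning to 1000 UMIs in 9.86% and 77.1%. Fabp5 was detected in 52.4% and 92.2% of the thinned cells and Spp1 in 29.8% and 65.9%. Ctsk went the other way, with 34.2% of the alveolar-marked and 15.1% of the C1q-marked cells. Lgals3 was detected in 92.0% and 88.8% of the thinned cells. Trem2 thus showed the widest gap between the classes.

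Summed over cells, Fabp5, Spp1, Trem2 and Ctsk showed the same order in wt replicate 2, het replicate 1 and null replicate 2. These libraries held at least 20 cells of both classes. Lgals3 stood higher in their C1q-marked cells, at 11232, 6447 and 5656 CPM against 6566, 3804 and 3188 CPM, although its detection outside wt replicate 2 did not. Trem2 stood at 1196, 3041, 2002 and 1915 CPM in the C1q-marked cells of wt replicate 2, het replicate 1, het replicate 2 and null replicate 2, and at 67.1 to 533 CPM in the alveolar-marked cells of 9 libraries. Spp1 stood at 13980, 5301, 7608 and 4700 CPM in the same C1q-marked cells and at 260 to 1513 CPM in alveolar-marked cells outside wt replicate 2 (6764 there). Gpnmb stood at 4500, 2154, 4349 and 2323 CPM in the C1q-marked cells, and at 461 to 1117 CPM in alveolar-marked cells outside wt replicate 2 (2265 there). The groups did not overlap in Trem2. In summed Spp1 and Gpnmb the alveolar-marked cells of wt replicate 2 lay within the range of the C1q-marked cells, and those of the other libraries below it, although their median Gpnmb per cell (574 CPM) lay within that of the other libraries. B cell gated barcodes of wt replicate 2 held Fabp5 at 2669, Spp1 at 3756, Trem2 at 304, Lgals3 at 3148 and Ctsk at 133 CPM. Those of het replicate 2 held 657, 601, 324, 1814 and 52.9 CPM, and in the other libraries the ranges for Fabp5 and Spp1 were 43.2 to 184 and 49.5 to 363 CPM. The part of such background in the levels of the Gpnmb-positive cells was not tested. Macrophages without a Gpnmb UMI held Fabp5 at 69.3 to 760 CPM (C1q-positive) and 166 to 518 CPM (alveolar), against 820 to 5912 CPM in alveolar-marked and 5503 to 11616 CPM in C1q-marked Gpnmb-positive cells. Spp1 stood at 477 to 1470 CPM and Trem2 at 60.4 to 136 CPM in alveolar macrophages without Gpnmb, overlapping the alveolar-marked ranges. Alveolar-marked cells held less Spp1 than this reference in wt replicates 3 and 4, het replicate 1, null replicates 2 and 3 and without a genotype 2. They held more in wt replicates 1 and 2 and without a genotype 1.

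**Figure D3:**
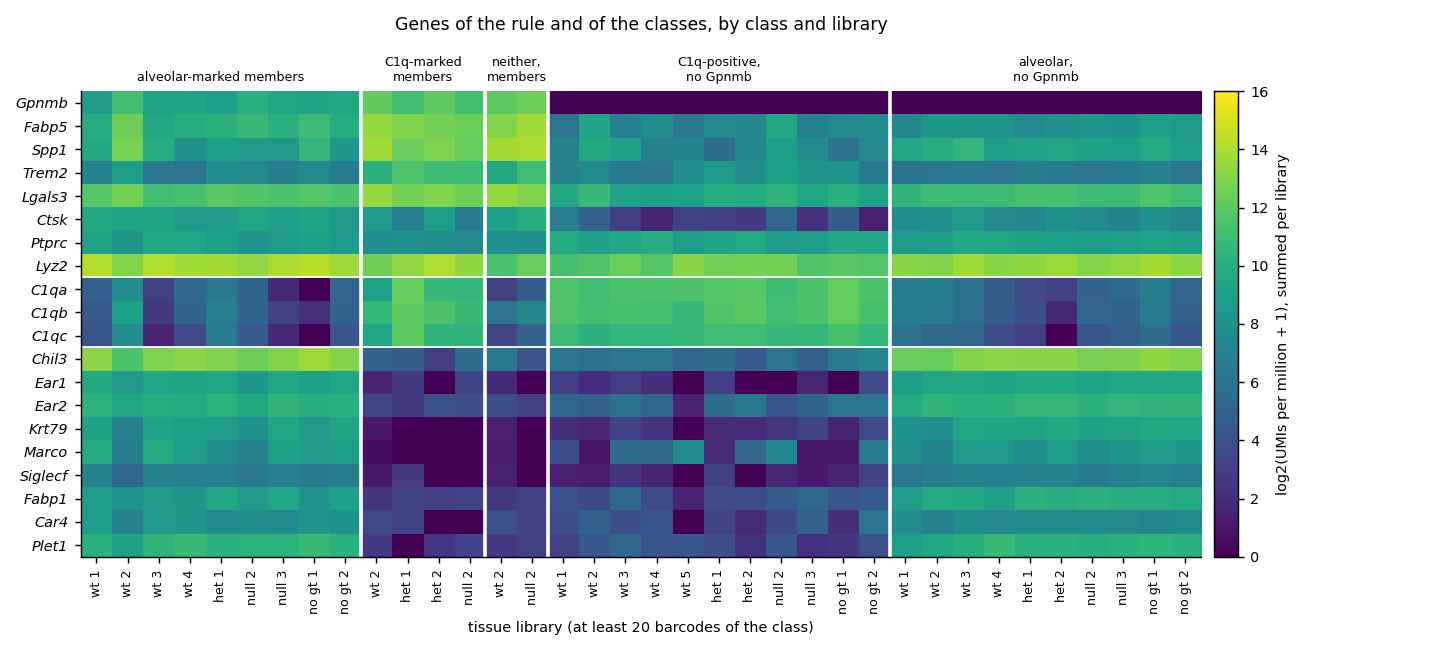
Levels of the genes of the rule, the C1q genes and the alveolar markers, as log2(CPM + 1) summed per library with at least 20 cells of the class, for Gpnmb-positive cells and for macrophages without Gpnmb. Chil3 lies at 2819 to 13542 CPM in alveolar-marked and at 6.59 to 51.0 CPM in C1q-marked Gpnmb-positive cells.

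The Gpnmb gene lies at chr6:49036546-49070929 on the plus strand of GRCm38 and Trem2 at chr17:48346401-48354147, also on the plus strand. RefSeq promoters (GRCm38.p6, 250 bases before to 50 after the start) were given for 5 of the 6 marker genes of the rule, Fabp5 not being among them. Both of those shown held a match to TGANTCA, the core of the AP-1 motif, written in capitals. It lay at base 8 after the RefSeq start in Gpnmb and 9 bases before it in Trem2. The RefSeq start of Gpnmb lies upstream of the gene start given above, and the match lies between them. The motif was found on either strand in 7.81% of 32851 promoters of this length. The E-box CACGTG of the MiT/TFE factors was in none of the 5, and in 7.15% of all promoters. GAGGAAGT, a motif of the factor PU.1, was in 1 of the 2 Spp1 promoters of the table and in 3.2% of all. These matches are descriptions and say nothing of use. The promoters of the gene that defines the cells and of the receptor with the widest gap between classes are shown, for chr6:49036268-49036567 and chr17:48346151-48346450, both on the plus strand.
Gpnmb: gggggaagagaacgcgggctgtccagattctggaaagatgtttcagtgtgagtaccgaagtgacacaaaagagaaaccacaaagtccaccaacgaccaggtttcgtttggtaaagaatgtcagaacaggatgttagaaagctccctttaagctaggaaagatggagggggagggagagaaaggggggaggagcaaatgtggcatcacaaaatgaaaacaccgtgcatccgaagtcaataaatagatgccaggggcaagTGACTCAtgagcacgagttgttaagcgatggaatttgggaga
Trem2: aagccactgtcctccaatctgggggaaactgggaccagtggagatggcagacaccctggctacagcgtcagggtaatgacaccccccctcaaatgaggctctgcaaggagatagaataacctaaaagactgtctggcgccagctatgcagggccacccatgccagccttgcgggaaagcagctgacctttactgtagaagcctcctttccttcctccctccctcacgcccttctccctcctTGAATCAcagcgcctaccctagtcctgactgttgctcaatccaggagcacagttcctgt

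The markers of other cell types were measured in each class. Summed alveolar markers came to 5266 to 18612 CPM in alveolar-marked Gpnmb-positive cells and 8494 to 16762 CPM in alveolar macrophages without Gpnmb. Summed C1q genes came to 2954 to 13260 CPM in C1q-marked cells and 5775 to 12114 CPM in C1q-positive macrophages without Gpnmb, and to 3.42 to 292 CPM in alveolar-marked cells outside wt replicate 2 (987 there). Kupffer cell markers were at 19.9 to 254 CPM in the C1q-marked cells of 4 libraries and 69.6 to 1401 CPM in C1q-positive macrophages without Gpnmb of all 11. Monocyte markers were at 100 to 231 and 398 to 3007 CPM, and dendritic cell markers at 2.79 to 20.9 and 68.4 to 154 CPM. Monocyte and dendritic cell markers were thus higher in the C1q-positive reference. The Kupffer ranges overlapped over these unlike sets of libraries, with 19.9 against 69.6 CPM within wt replicate 2. The part of this in the differences given further on was not tested. In the unmarked cells of wt replicate 2, alveolar markers were at 133 CPM, C1q genes at 85.1, Kupffer markers at 10.1 with Clec4f and Vsig4 at 0, dendritic markers at 64.9 and neutrophil markers at 1653. In that library neutrophil markers were at 2192 CPM in B cell gated barcodes, and at 2873 and 1308 CPM in C1q-positive and alveolar macrophages without Gpnmb. The lipid-associated list of the unmarked cells stood at 17199 CPM, with Spp1 at 14478 and Gpnmb at 4225 CPM. Melanocyte markers, for another cell type with much Gpnmb, were at most 2.79 CPM in the Gpnmb-positive classes.

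The alveolar-marked Gpnmb-positive cells were compared with alveolar macrophages of the same libraries that held no Gpnmb UMI. Both sides were set by gates and not by chance. The reference had to lack Gpnmb UMIs but, unlike the Gpnmb-positive cells, did not need any companion gene. The test thus asks only which other genes differed with the Gpnmb and companion gates together, on average over the libraries. Of the libraries with a genotype, 7 held at least 20 cells of both classes (wt replicates 1 to 4, het replicate 1 and null replicates 2 and 3). The 2 libraries without a genotype held as many too, but entered only an alternative with all 11 libraries, given at the end. Of 10887 genes tested with edgeR's quasi-likelihood test on UMIs summed per library and class, 96 were higher in the Gpnmb-positive cells (0.882%) and 67 lower (0.615%) at an adjusted p under 0.05. The balance of directions depended on the choices made, with 58.9% of calls higher here, 38.5% of 273 without doublets and 25.7% of 843 without a low-count filter. Lysosomal, lipid handling and ferritin genes were among the higher ones, and MHC class II genes among the lower ones. Gpnmb-positive cells were deeper, with median UMIs of 15297 against 9904 in wt replicate 1, 4788 against 2936 in wt replicate 3, 9044 against 5695 in het replicate 1 and 2277 against 1583 in null replicate 2. With cells thinned to 2000 UMIs and shallower ones left out, 178 genes were called. Leaving out 1 library at a time gave between 70 (without null replicate 3) and 254 (without wt replicate 1) called genes, and Ctsl, Plin2, Soat1, Atp6v0d2, Egr1, Txnip, Pld4, Cebpd, Cldn5, Egfl7, Kap, Ttr, Igfbp5, Fmo1 and Hspb1, named further on, lost their call without at least 1 of the libraries.

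Of the 19 tested genes of a lipid-associated macrophage list that leaves out the rule's genes, 12 were higher and 0 lower, with a median log2 change of 0.72 against -0.02 over all genes tested. Cd63, a tetraspanin of lysosomes, stood at 652, 1187, 549, 433, 463, 884 and 595 CPM in the Gpnmb-positive cells of wt replicates 1 to 4, het replicate 1 and null replicates 2 and 3, and at 552, 407, 315, 178, 215, 224 and 245 CPM in their references. It was higher in 7 of 7 libraries (log2 change 1.21 ± 0.15 SE, adjusted p = 0.000748), least in wt replicate 1. Lipa, the acid lipase that frees cholesterol and fatty acids in lysosomes, stood at 599 ± 101 CPM against 363 ± 99.2 (SD, n = 7 libraries; log2 change 0.8 ± 0.09, adjusted p = 0.000503). Cd36, a receptor for fatty acids and oxidised lipoproteins, stood at 610 ± 86.2 against 391 ± 21.8 CPM, and the ranges of the 2 classes did not overlap (483 to 745 against 359 to 420; log2 change 0.69 ± 0.09, adjusted p = 0.00121). The growth factor Igf1 had 47.8 ± 30.4 against 14.9 ± 5.35 CPM (log2 change 1.62 ± 0.23, adjusted p = 0.0025). Syngr1, a vesicle protein, had the largest log2 change of the list (3.14 ± 0.55, adjusted p = 0.0116), but stood at 343 CPM in wt replicate 2 and 4.33 to 13.7 CPM in the other 6 libraries, and its call was lost without wt replicate 2. Apoe, Lpl and Cd9, named in many accounts of lipid-associated macrophages and picked here after their values were seen, were not called (log2 changes -0.01 ± 0.34, 0.35 ± 0.12 and 0.4 ± 0.12, adjusted p = 1.0, 0.166 and 0.115).

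Lysosomal genes were higher wherever they were called. Of 26 hydrolases and membrane proteins 12 were higher and 0 lower (median log2 change 0.52). Of those picked after their values were seen, the protease Ctsd stood at 5817 ± 909 against 3514 ± 794 CPM (log2 change 0.8 ± 0.1, adjusted p = 0.00105), and Psap, the precursor of the saposins that present lipids to lysosomal enzymes, at 4387 ± 569 against 2756 ± 449 CPM (0.73 ± 0.08, adjusted p = 0.00035). Cd68, a heavily glycosylated lysosomal protein used as a macrophage marker, stood at 506 ± 120 against 272 ± 43.6 CPM with no overlap between the classes (0.94 ± 0.15, adjusted p = 0.00505). Naglu, which degrades heparan sulphate, rose by 1.14 ± 0.16 (adjusted p = 0.00177), and the protease Ctsl, at 1848 CPM in wt replicate 2 and 296 to 567 CPM in the other libraries, by 1.01 ± 0.21 (adjusted p = 0.0323). Ctsb was higher in 7 of 7 libraries without a call (0.82 ± 0.2, adjusted p = 0.0563). Of 16 subunits of the vacuolar ATPase, the pump that acidifies lysosomes, 5 were higher and 0 lower (median 0.42), among them Atp6v1c1 at 237 ± 19.2 against 151 ± 14.2 CPM (0.73 ± 0.1, adjusted p = 0.00177) and Atp6v0d2 at 760 ± 159 against 528 ± 155 CPM (0.61 ± 0.14, adjusted p = 0.0425).

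Genes that store or export lipid and iron were examined next. Among 12 genes of lipid storage and hydrolysis 3 were higher and 0 lower: Lipa, the cholesterol esterifying enzyme Soat1 (log2 change 0.67 ± 0.14, adjusted p = 0.0308) and the droplet coat protein Plin2 (0.53 ± 0.11, adjusted p = 0.0367). Abca1, which exports cholesterol, was the called gene among 7 of cholesterol efflux, at 231 ± 74.7 against 131 ± 51.8 CPM (0.93 ± 0.12, adjusted p = 0.000925). The ferritin chains Ftl1 and Fth1, which store iron, were the called genes among 9 of iron and haem handling, with Ftl1 at 15893 ± 1699 against 9794 ± 1033 CPM and no overlap between classes (0.75 ± 0.08, adjusted p = 0.00035). Among 6 genes of TREM2 signalling the adaptor Tyrobp was called (0.49 ± 0.09, adjusted p = 0.0112). None of the 4 MiT/TFE factors was called by edgeR, and Mitf had a log2 change of 0.22 ± 0.18 (adjusted p = 0.638). The 4 alveolar type 2 cell markers had a median of 1.07 with 0 called, and Sftpc was higher in 4 of 7 libraries (1.28 ± 0.48, adjusted p = 0.2).

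MHC class II, which presents antigen to helper T cells, was lower. Of 7 genes 6 were lower and 0 higher (median log2 change -0.92). Cd74, the chaperone of class II molecules, stood at 1379, 2209, 1599, 1396, 2042, 1734 and 1531 CPM in the Gpnmb-positive cells and at 3446, 3720, 3162, 2681, 3185, 2767 and 2803 CPM in their references, in the order of libraries used for Cd63. All values of the Gpnmb-positive cells lay below all values of the reference (log2 change -0.83 ± 0.08, adjusted p = 0.000169). H2-Ab1, the class II beta chain, had 395 ± 117 against 852 ± 203 CPM (-1.05 ± 0.13, adjusted p = 0.00105), and Ciita, the activator of these genes, was not called (-1.46 ± 0.35, adjusted p = 0.0521). Among 10 immediate early and heat shock genes, which often rise on dissociation, Egr1 was lower (-0.87 ± 0.16, adjusted p = 0.0161) and 0 were higher. Some lower genes belong to other cell types, among them the hepatocyte gene Ttr (-1.16 ± 0.27, adjusted p = 0.048), the Kupffer gene Clec4f (-3.83 ± 0.59, adjusted p = 0.00407), the endothelial genes Cldn5 and Egfl7 (-1.18 ± 0.23 and -1.05 ± 0.24, adjusted p = 0.0231 and 0.0431), and the kidney gene Kap (-3.39 ± 0.72, adjusted p = 0.034). The part of other cells' RNA in the reference was not tested.

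Outside the lists, the largest changes that held in all 7 libraries were in genes of varied function. Cxcr1, a chemokine receptor best known from neutrophils, stood at 54.5, 18.9, 79.0, 117, 74.2, 69.8 and 81.0 CPM in the Gpnmb-positive cells and at 2.52 to 17.9 CPM in the references (log2 change 2.93 ± 0.26, adjusted p = 5.67e-05), while neutrophil list genes had 0 calls. All values of the Gpnmb-positive cells lay above all references, and wt replicate 2 was lowest. Myo5a, a motor protein for vesicles, stood at 66.1 ± 14.8 against 20.3 ± 7.25 CPM (1.81 ± 0.15, adjusted p = 4.91e-05), and S100a1, a calcium-binding protein, at 759 ± 234 against 325 ± 70.5 CPM (1.26 ± 0.1, adjusted p = 4.91e-05). Slc39a2, a zinc importer, rose by 1.48 ± 0.16 and Gstm1, a glutathione transferase, by 0.95 ± 0.11 (adjusted p = 0.00035 and 0.000503). Ahnak2, Scd1, Cd200, Capn15 and C77080 rose by 1.57 ± 0.23, 1.07 ± 0.17, 1.04 ± 0.18, 0.92 ± 0.12 and 1.07 ± 0.18. Lower in all 7 were Hpgd, which breaks down prostaglandins (-1.39 ± 0.16, adjusted p = 0.000503), Txnip (-0.77 ± 0.14, adjusted p = 0.0116), Pld4 (-0.82 ± 0.16, adjusted p = 0.0175), and Tmem100, Igfbp5, Fmo1, Hspb1 and Cebpd, with log2 changes from -1.4 to -0.78.

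**Figure D4:**
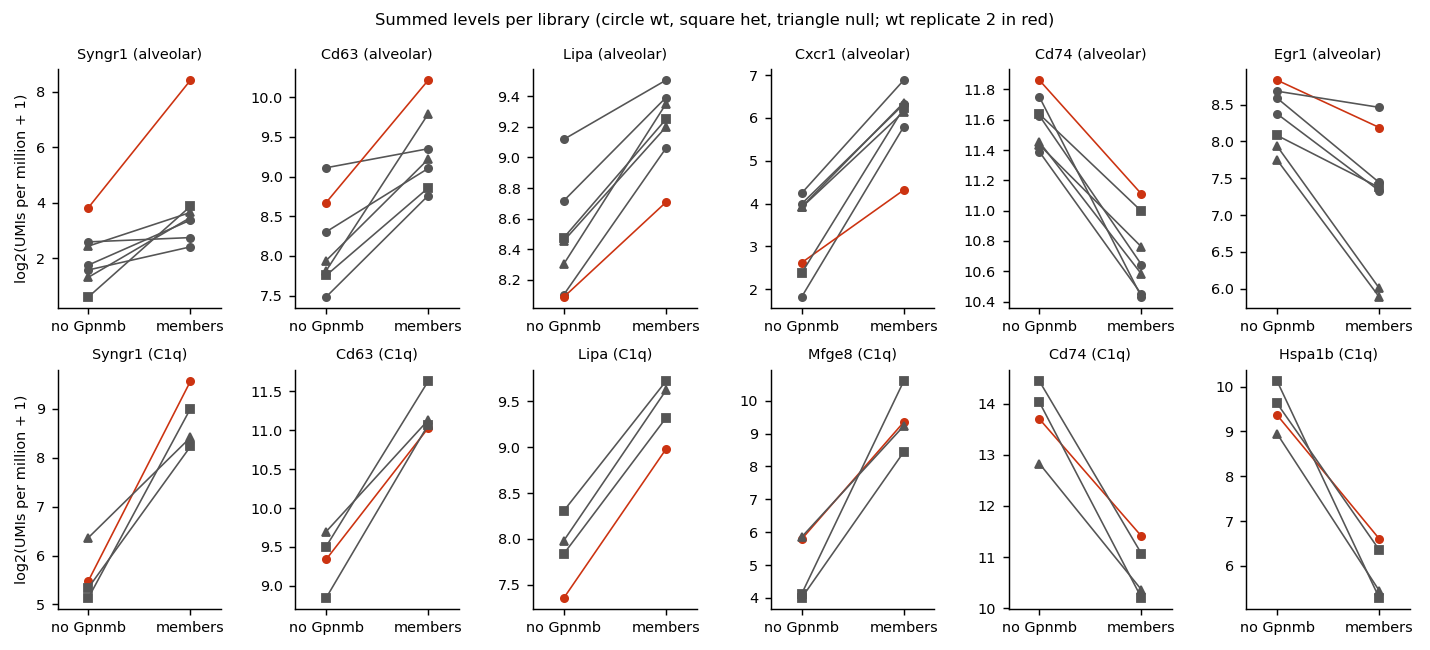
Levels of chosen genes (CPM, log axis) in Gpnmb-positive cells and in macrophages without Gpnmb, with a line for each library joining its 2 classes and wt replicate 2 in red. Cd74 falls and Cd63 and Lipa rise along every line in both comparisons, and the Syngr1 level of alveolar-marked cells is set apart in wt replicate 2 (343 CPM).

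The C1q-marked Gpnmb-positive cells were compared in the same way with C1q-positive macrophages without Gpnmb, in the 4 libraries with at least 20 cells of both (wt replicate 2, het replicates 1 and 2 and null replicate 2). This reference, too, did not need any companion gene. Lipid, lysosomal and matrix genes were among those higher and class II and heat shock genes among those lower. Of 7707 genes 1115 were higher (14.5%) and 1316 lower (17.1%) by edgeR at an adjusted p under 0.05, so a called gene was common here and each list is to be read against those shares. Depth differed strongly, with median UMIs of all Gpnmb-positive cells lacking the alveolar mark at 8201, 12001, 8856 and 3831 against 2921, 2183, 1629 and 1266 in the references. Thinned to 2000 UMIs with shallower cells left out, 772 genes were called, without wt replicate 2, 1086, and without het replicate 1, 1598. All libraries were from males.

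In the lipid-associated list 15 of 19 genes were higher and 0 lower (median log2 change 1.71 against -0.07 over all genes). Ctsl, a lysosomal protease, stood at 3991, 2542, 5740 and 1456 CPM in wt replicate 2, het replicates 1 and 2 and null replicate 2, against 371, 279, 249 and 353 CPM in the references (log2 change 3.48 ± 0.33, adjusted p = 0.000122). Syngr1 stood at 756, 299, 512 and 340 CPM against 43.7, 39.5, 34.1 and 81.4 CPM (3.5 ± 0.33, adjusted p = 0.000113). In both genes every Gpnmb-positive value lay above every reference value. Lpl, which splits triglycerides, had 1253 ± 349 against 463 ± 193 CPM (SD, n = 4; 1.65 ± 0.16, adjusted p = 0.000122). Cd63 had 2414 ± 510 against 665 ± 156 CPM (2.04 ± 0.17, adjusted p = 8.47e-05). Mmp12, the macrophage elastase, had 1114 ± 363 against 303 ± 114 CPM (2.04 ± 0.33, adjusted p = 0.00149). Fabp4 was higher in 2 of 4 libraries and not called (1.12 ± 0.51, adjusted p = 0.119).

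Lipid droplet and iron genes followed. Of 10 genes of lipid storage and hydrolysis 7 were higher and 1 lower, with Hilpda, a droplet protein that blocks lipolysis, at 743 ± 365 against 144 ± 67.4 CPM (2.51 ± 0.33, adjusted p = 0.000561), Plin2 at 1064 ± 399 against 280 ± 43.1 CPM (2.04 ± 0.23, adjusted p = 0.000215) and the lipase Lipe lower (-2.05 ± 0.65, adjusted p = 0.0337). Among 8 genes of lipid uptake 4 were higher and 1 lower, the lower being Axl, a receptor for dying cells, at 88.2 ± 31.3 against 306 ± 106 CPM (-1.73 ± 0.22, adjusted p = 0.000458). Abca1 and Abcg1 rose by 1.14 ± 0.2 and 0.97 ± 0.21 (adjusted p = 0.00268 and 0.0071), while Apoe missed the call (0.82 ± 0.29, adjusted p = 0.0537) with values from 7592 to 31737 CPM. Of 10 iron genes 5 were higher and 2 lower: Ftl1 rose by 1.71 ± 0.15, whereas Cd163, the haemoglobin receptor, and Slc40a1, the iron exporter, fell by 3.69 ± 0.52 and 1.57 ± 0.25 on the log2 scale (adjusted p = 0.000785 and 0.00159). Red cell genes were lower too, all 4 of 4 (median -2.92), and their part in the iron genes was not tested.

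Lysosomal genes rose in 17 of 26 cases and fell in 2 (median 1.07), the lower ones being Ctsc and Ppt1, named after their values were seen. Vacuolar ATPase subunits were higher in 14 of 15 (median 1.12). Atp6v0d2, a subunit known from osteoclasts and alveolar macrophages, had the largest change among them, with 405, 829, 712 and 501 CPM against 23.3, 17.7, 10.9 and 71.5 CPM (4.64 ± 0.43, adjusted p = 0.000109). Among 16 matrix and growth factor genes 6 were higher and 3 lower, with Mmp19 up (2.2 ± 0.44, adjusted p = 0.00464) and Pdgfb down (-2.27 ± 0.31, adjusted p = 0.00062). Mitf was the called gene of the 4 MiT/TFE factors (0.83 ± 0.25, adjusted p = 0.0275), and lost its call without wt replicate 2 or het replicate 2, without the library block and with DESeq2. Of the other genes named on this side, Abcg1 lost its call without wt replicate 2, Lipe without het replicate 1 and with DESeq2, and Cd36, Il1rn and Slc40a1 without the library block. Of 7 TREM2 signalling genes Lat2 and Tyrobp were higher (1.4 ± 0.23 and 0.78 ± 0.13, adjusted p = 0.00186 and 0.00159) and the inhibitory phosphatase Inpp5d lower (-0.95 ± 0.21, adjusted p = 0.00801). The cell cycle inhibitor Cdkn1a stood at 605 ± 219 against 299 ± 125 CPM (1.2 ± 0.2, adjusted p = 0.00193).

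All 7 class II genes were lower (median -2.82). Cd74 stood at 2714, 1175, 2140 and 1312 CPM against 13310, 16723, 22231 and 7271 CPM (-2.82 ± 0.23, adjusted p = 8.47e-05), and Ciita at 8.77 ± 0.823 against 129 ± 90.2 CPM (-3.44 ± 0.33, adjusted p = 0.000122). Hspa1b, an inducible heat shock protein, stood at 96.2, 80.9, 37.9 and 42.5 CPM against 659, 790, 1116 and 493 CPM (-3.37 ± 0.31, adjusted p = 0.000105), and 5 of 10 immediate early and heat shock genes were lower and 0 higher. Of 13 inflammatory genes 4 were lower, Il1b among them (-1.31 ± 0.18, adjusted p = 0.000672), and Il1rn, which blocks interleukin-1 signalling, was higher (1.5 ± 0.25, adjusted p = 0.00189). The interferon gene Ifit3 was called higher (2.07 ± 0.42, adjusted p = 0.00487) though it rose in 3 of 4 libraries. Lists of other myeloid cells were also lower, with 4 of 4 dendritic cell genes, 4 of 5 monocyte genes, 3 of 4 Kupffer and 3 of 4 peritoneal macrophage genes, and Ccr2, the monocyte chemokine receptor, at 20.2 ± 11.9 against 276 ± 205 CPM (-3.5 ± 0.36, adjusted p = 0.00018). Many markers of cells outside the myeloid lineage were lower as well, with 4 of 4 endothelial genes (median -2.33), 3 of 3 hepatocyte genes (-1.59), 3 of 4 kidney tubule genes (-1.31), and both tested genes of alveolar type 2 cells (-2.11) and of B cells (-1.82). Of smooth muscle genes 1 of 2 was lower and of epithelial genes 1 of 1. Among 4 fibroblast genes 0 were lower (median -0.25), and among T and NK cell genes 0 of 1 (-0.34). The part of other cells' RNA in the reference, and its makeup, were not tested.

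**Figure D5:**
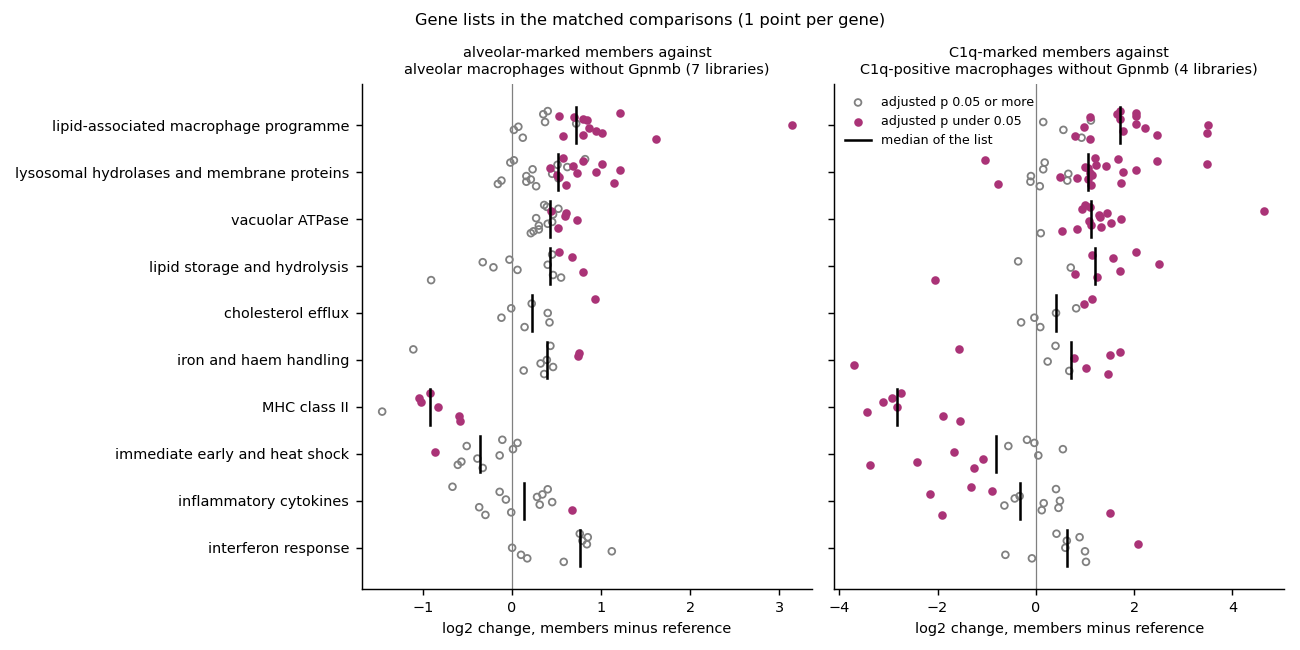
Log2 change of each gene of 10 lists in alveolar-marked (left, 7 libraries) and C1q-marked (right, 4 libraries) Gpnmb-positive cells against macrophages of the same mark without Gpnmb, filled points at an adjusted p under 0.05 and black bars for the median. The lipid-associated list has medians of 0.72 and 1.71 and MHC class II of -0.92 and -2.82.

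Outside the lists the largest rises on this side were Mfge8, a bridge protein for engulfing dying cells, at 784 ± 523 against 35.6 ± 23.0 CPM (4.54 ± 0.44, adjusted p = 0.000122), Ahnak2 (4.23 ± 0.44, adjusted p = 0.000178) and the coagulation factor F7 (3.73 ± 0.37, adjusted p = 0.000137). Arg1, the arginase of repair macrophages, Pdpn (podoplanin) and Il7r (the interleukin-7 receptor) rose by 3.41 ± 0.41, 3.11 ± 0.24 and 2.87 ± 0.45 (adjusted p = 0.000335, 8.47e-05 and 0.00138). Fbxo32, Wfs1, Sdc1 and Lhfpl2 rose by 2.8 to 3.43. The largest falls were in Mgl2, a lectin of macrophages and dendritic cells, at 5.02 ± 5.28 against 302 ± 152 CPM (-5.08 ± 0.36, adjusted p = 8.47e-05), in the secreted protein Retnla at 3.76 ± 6.47 against 366 ± 237 CPM (-4.92 ± 0.56, adjusted p = 0.000225), and in Lilra5, Siglece, Cd209f, Cxcl13, Spn, Cxcl9, Col14a1 and Dnase1l3 between -5.0 and -3.6.

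The comparisons shared 3 libraries (wt replicate 2, het replicate 1 and null replicate 2) but no cells. Of the 96 genes higher in alveolar-marked cells, 74 (77.1%) were also called higher on the C1q side, which is 6.64% of the 1115 called there. Of the 96, 88 were tested on the C1q side, where 14.5% of all genes were called higher, and 0 were called the other way. The shared genes included Cd63, Lipa, Cd36, Cd68, Ctsd, Ctsl, Psap, Plin2, Abca1, Soat1, Igf1, Fth1, Ftl1, Tyrobp, Vat1, Syngr1 and Ahnak2. Of 66 lower genes, those left after the markers that define the classes were set aside, 43 (65.2%) were also lower on the C1q side, 3.27% of 1313. Of the 66, 47 were tested there, where 17.1% of all genes were called lower, and 0 were opposite. Cd74, H2-Aa, H2-Ab1, H2-Eb1, H2-DMa, H2-DMb1, Egr1, Txnip and Clec4f were among them. Without regard to alveolar marks, all Gpnmb-positive cells against C1q-positive macrophages gave 1923 higher and 1997 lower of 8885 genes (21.6% and 22.5%), and against alveolar macrophages 284 higher and 101 lower of 10853 (2.62% and 0.931%), over 8 libraries, where the mixture of classes differed between the sides.

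Promoters of the lysosomal and vacuolar ATPase lists were read for the same motifs. Of the 26 lysosomal genes 21 had a RefSeq promoter, and CACGTG was in those of 7 (Ctsa, Ctsd, Ctsl, Glb1, Lamp1, Lgmn and Naglu). Of the 16 vacuolar ATPase genes 11 had one, with CACGTG in 4 (Atp6v0b, Atp6v0d1, Atp6v0e and Atp6v1a), against 7.15% of all promoters. TCATGTG, another E-box form, was in 6 of the 21 and 1 of the 11, against 3.77% of all. Ctsd, Lamp1 and Naglu are shown, chosen after their values were seen, because they hold the motif and were higher in both comparisons, by 0.8, 0.43 and 1.14 on the log2 scale in alveolar-marked and by 2.46, 1.07 and 1.74 in C1q-marked cells. They lie at chr7:142387778-142388077 on the minus strand, chr8:13158911-13159210 on the plus strand and chr11:101069844-101070143 on the plus strand of GRCm38.p6, with CACGTG in capitals. No binding was measured in these libraries.
Ctsd: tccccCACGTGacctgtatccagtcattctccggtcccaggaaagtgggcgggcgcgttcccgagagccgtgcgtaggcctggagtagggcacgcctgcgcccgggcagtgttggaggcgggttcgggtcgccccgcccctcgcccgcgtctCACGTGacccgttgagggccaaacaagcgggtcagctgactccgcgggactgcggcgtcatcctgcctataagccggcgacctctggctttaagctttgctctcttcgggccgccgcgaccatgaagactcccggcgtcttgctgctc
Lamp1: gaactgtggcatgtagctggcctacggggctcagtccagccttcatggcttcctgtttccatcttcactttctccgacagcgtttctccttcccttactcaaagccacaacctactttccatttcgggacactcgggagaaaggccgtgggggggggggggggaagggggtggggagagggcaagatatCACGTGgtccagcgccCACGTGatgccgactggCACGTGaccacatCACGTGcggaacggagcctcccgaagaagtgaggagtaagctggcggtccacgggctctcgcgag
Naglu: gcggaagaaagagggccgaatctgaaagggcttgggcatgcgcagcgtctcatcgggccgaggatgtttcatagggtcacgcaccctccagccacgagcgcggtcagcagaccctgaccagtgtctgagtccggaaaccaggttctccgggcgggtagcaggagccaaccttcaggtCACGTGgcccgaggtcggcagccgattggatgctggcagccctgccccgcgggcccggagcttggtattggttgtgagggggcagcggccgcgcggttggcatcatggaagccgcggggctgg

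The share of Gpnmb-positive cells was then compared between genotypes over libraries. It was 4.3% ± 5.71 (SD, n = 5) of passing barcodes in wt, 1.9% ± 0.348 (n = 2) in het and 1.21% ± 0.273 (n = 2) in null libraries. The null minus wt difference was -3.09 percentage points (exact two-sided permutation p = 0.571, where 0.0476 is the smallest the design allows) and the het minus wt difference -2.4 (exact permutation p = 0.667). The spread of the wt libraries, set by replicate 2, was wider than either difference. Without that library the wt share was 1.82% ± 1.56 (n = 4), null minus wt was -0.608 points (exact permutation p = 0.733) and het minus wt 0.0857 points (exact permutation p = 1.0), where 0.0667 is the smallest p that 4 against 2 libraries allow. After thinning, the differences without that library were 1.61 points for null and 0.969 for het (exact permutation p = 0.333 for both), so the direction for null turned, and with all libraries they were -1.65 and -2.29. For cells without the alveolar mark the differences were -2.18 (null) and -1.75 (het) points with all libraries and 0.38 and 0.809 without wt replicate 2 (exact permutation p = 0.267 and 0.0667). The value for het is the smallest the design allows: both het libraries (0.453% and 1.46%) lay above the 4 wt libraries (0 to 0.375%), so this difference could not have passed the threshold. Both het libraries were male and 2 of those 4 wt libraries female, and the share without the alveolar mark was 0.0433% ± 0.0392 (SD, n = 3) in female and 0.684% ± 0.536 (n = 5) in male libraries without wt replicate 2. Among cells of the alveolar gate, 21.2% ± 14.4 (SD, n = 5) were Gpnmb-positive in wt and 6.62% ± 3.93 (n = 2) in null libraries, a difference of -14.6 points (exact permutation p = 0.19), and without wt replicate 2 of -13.2 points (exact permutation p = 0.333). Depth also differed between libraries. Alveolar macrophages without Gpnmb had a median of 9904 UMIs in wt replicate 1, which had the highest share (44.0%), and 1583 in null replicate 2, which had the lowest (3.84%). Between them stood het replicate 1 with 5695 UMIs and 24.2%, and wt replicate 2 with 5610 and 26.9%. Lower than these in both lay null replicate 3 (3387 and 9.39%), wt replicate 4 (2983 and 11.1%) and wt replicate 3 (2936 and 14.3%). Out of this order were wt replicate 5 (8329 and 10.0%, 10 cells in the gate) and het replicate 2 (4924 and 8.7%, 92 cells). The part of depth in this share was not tested.

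By sex, all 3 female libraries with a genotype lay below all 6 male ones. The female share was 0.735% ± 0.346 (SD, n = 3) and the male 4.25% ± 4.96 (n = 6), a difference of -3.52 points (exact permutation p = 0.286, where 0.0119 is the smallest possible). Without wt replicate 2 the male share was 2.25% ± 0.936 (n = 5) and the difference -1.52 points (exact permutation p = 0.0357), and without null replicate 3, whose Y-linked transcripts go against its label, it was -3.65 (exact permutation p = 0.286). The female library without a genotype held 2.14%, more than het replicate 2 and null replicate 2, both male, held. Sex went with uterus or epididymis in the pool and with age (611 to 654 days in the females and 551 to 608 in the males), and these cannot be told apart.

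Across genes, few or no calls between genotypes were made in the Gpnmb-positive cells. By edgeR with sex as a covariate, 0 of 7381 genes (0.0%) passed an adjusted p of 0.05 for null against wt and 0 (0.0%) for het against wt, in 8 libraries. At an unadjusted p under 0.05 there were 241 (3.27%) and 145 (1.96%) genes, and DESeq2 called 2 and 2. Without wt replicate 2 edgeR again called 0 and 0. In alveolar-marked cells, null against wt gave 0 of 6319 genes (0.0%) in 6 libraries, 212 (3.35%) at an unadjusted p under 0.05 and 6 by DESeq2, with the smallest edgeR adjusted p at 0.112 for the haemoglobin gene Hbb-bs. That count of 0 did not hold under every choice: 57 genes were called with the replicate number in the model, 12 with libraries of the same age and sex summed, and 6 without wt replicate 2. Interferon response genes summed to 3012 CPM in the Gpnmb-positive cells of wt replicate 2, 369 in null replicate 2 and 62.6 to 175 CPM in the other libraries with at least 20 cells, so the wt group held a wide range. The lipid-associated list summed to 18026 to 25085 CPM in all these libraries, a narrow range beside it.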

How the data were processed

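Single-cell libraries were made with 10x Genomics chemistry from sorted blood cells, peripheral blood mononuclear cells and pooled, hashtagged organs. The authors deposited UMI counts per gene and barcode for mm10 (31053 genes), unnormalized. The matrix headers name Cell Ranger 3.0.2 and the submitters' processing notes Cell Ranger 2.1.1 and Seurat. Hashtag counts were not used.

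Members were selected by the rule in the opening text, with scanpy 1.11.5 and scipy 1.17.1 under Python 3.11.15. Scrublet's automatic threshold did not work, so the highest scores were taken as doublets at 0.8% per 1000 passing barcodes, at most 25%; these cells stayed in, and an alternative left them out. Counts were summed per library and class (at least 20 cells) and fitted with edgeR 4.0.16 (TMM, filterByExpr, quasi-likelihood test, Benjamini-Hochberg adjustment, R 4.3.3) with the library as a block, or with sex as a covariate for genotypes. Genes of the rule were kept out of counts of calls between classes, and markers of the classes only out of the overlap of the comparisons. Shares were compared over libraries by exact two-sided permutation tests. The edgeR fits of alveolar-marked cells, of C1q-marked cells and between genotypes were tested on simulated counts. Alternatives included DESeq2 1.42.0, RLE scaling, no low-count filter, thinning to 2000 UMIs with shallower barcodes left out, and leaving out each library.

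The members and gene lists were chosen with earlier results of these data known. Named genes were, from each list, up to 4 called genes with the largest change and 1 not called, and outside the lists up to 10 higher and 10 lower with at least 50 CPM in the higher class and the same direction in every library; predicted, ribosomal and mitochondrial genes were not named, and other names are said to have been picked after their values were seen. Equal replicate numbers were not taken to pair libraries, since no label ties them. Of the genes that met the rule for names, 1 is not reported here.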

Additional observations from a re-analysis of the deposited data

Results flagged for a closer look

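The library wt replicate 2 lay far from the others of its group by Dixon's criterion in several measures. Gpnmb-positive cells made up 14.2% of its passing barcodes, against 3.8% in the next library both among the 5 wt and among the 6 male libraries. Cells without the alveolar mark made up 13%, against 0.375% in the next wt and 1.46% in the next male library. In its B cell gated barcodes Gpnmb stood at 1147 CPM, against 23.9 CPM in the next wt library, and 36.4% of them held a Gpnmb UMI, against 3.29% in the next wt and 3.62% in the next male library. The criterion was applied to 12 groups of values, and chance alone marks about 1 in 20.

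Cells meeting the rule were also seen in data that no main comparison used. Among sorted circulating ZSGreen-positive cells 5 of 2109 passing barcodes met it (0.237%), in 4 of 10 libraries; how far free RNA gave these cells was not tested. These libraries came from wt, het and null mice of 551 to 649 days. Among peripheral blood mononuclear cells, from 1 wt library at 120 days, 0 of 679 did, which allows a share of up to 0.442%. The organ libraries without a genotype held 1.09% (47 cells) and 2.14% (342 cells).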

How the results depend on the processing

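Of 170 settings tried for the shares of all Gpnmb-positive cells and the comparisons across genes, those of alveolar-marked cells between genotypes aside, 130 left the direction and the call, or the count within 1.5 times. The remainder follow, with those for shares by class and for alveolar-marked cells between genotypes, and the cause was not tested unless named. Against C1q-positive macrophages, all Gpnmb-positive cells gave 3920 called genes, 2593 at 10 or more Gpnmb UMIs (a limit added after the data were seen) and 1950 thinned to 2000 UMIs. Against alveolar macrophages they gave 385, but 744 with DESeq2, 718 and 730 at 10 or more and 3 or more Gpnmb UMIs, 597 in all 11 organ libraries, 174 thinned, 1545 without a low-count filter, 169 without doublets and 89 (without null replicate 2) to 823 (without wt replicate 1) with 1 library left out. Alveolar-marked cells gave 163 (58.9% higher), but 354 in all 11 libraries (46.0% higher), 843 without a filter (25.7%), 32 without the library as replicate block (87.5%), 273 without doublets (38.5%) and 70 to 254 with 1 library left out. At 10 or more Gpnmb UMIs edgeR called 0, with 517 at an unadjusted p under 0.05, in the 2 libraries that remained. C1q-marked cells gave 2431, but 772 thinned, 1493 without the replicate block and 1086 (without wt replicate 2) to 1977 (without null replicate 2) with 1 library left out. For genotype, edgeR's 0 calls became 2 with DESeq2, 1 with libraries of equal age and sex summed and 10 without a filter for null, and 2 with DESeq2 and 15 without a filter for het. In alveolar-marked cells alone the 0 became 1 thinned and 39 without a filter. Among named genes, 159 of 1355 gene and setting pairs on the alveolar side and 72 of 1758 on the C1q side lost a call, and in no pair did a called change turn its direction. The het minus wt share ran from -3.38 to 0.0857 points, turning its direction without wt replicate 2. Thinned to 2000 UMIs and without that library (added after the data were seen), the shares also turned, to 1.61 (null), 0.969 (het) and 1.29 (both) points. So did the share without the alveolar mark, at 0.38 (null), 0.809 (het) and 0.594 (both) points. The female minus male share ran from -4.08 to -1.52 points, past the threshold without wt replicate 2 (exact permutation p = 0.0357). Differences within shared replicate numbers, a replicate block over 2 pairs, were -7.04 (null) and -7.11 (het) points, with an exact permutation p = 0.5, the smallest possible. Libraries of equal number deviated together (r = 0.59 over 4191 genes for wt and null, 0.608 over 6031 for wt and het), but with 2 pairs this does not show that the numbers pair the mice. These values came from sums over all Gpnmb-positive cells. Of those cells few were alveolar-marked in each replicate 2 (8.94% in wt, 11.9% in het, 28.7% in null). The part of this mixture in r was not tested. The share in wt replicate 5 rests on 287 passing barcodes.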
